A study of Mus musculus with 10 samples.

Results

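The 8 genes described here are Foxa2, Foxa1, Trh, Apoe, Rhox5, Dab2, Amn and Cubn, which are used as markers of definitive or extraembryonic endoderm. They were taken by symbol from the 23337 genes of the deposited count table, and each symbol matched 1 entry. They were chosen because Foxa2 was higher at the later day without doxycycline, and to follow endoderm markers after induction of Etv2, with earlier results of these data known.

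The libraries were bulk RNA-seq of embryoid bodies, which are aggregates of differentiating mouse embryonic stem cells. All came from the iHA-Etv2 line, in which doxycycline induces the ETS transcription factor Etv2. The 5 groups, each with 2 libraries, were Flk1-positive cells of doxycycline-treated embryoid bodies at day 2.5, doxycycline-treated embryoid bodies at day 2.5, untreated embryoid bodies at day 2.5, doxycycline-treated embryoid bodies at day 2, and untreated embryoid bodies at day 2. The labels give Flk1 (the receptor encoded by Kdr) as false for the other 4 groups and leave it unstated if these were whole embryoid bodies or a Flk1-negative fraction. No group given doxycycline without the Etv2 construct was analysed here, so the drug itself and Etv2 cannot be told apart. The dose, the time at which doxycycline was added and whether the libraries of a group came from separate cultures are not given in the labels, so each p-value reflects no more than library-to-library spread, which may be technical.

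Total counts were 18074070 to 36068329 per library. Levels are given in CPM, read counts scaled by TMM-adjusted library size, in which a count of 0 allows a level of up to 3 counts, or 0.0824 to 0.164 CPM. Etv2 averaged 263 CPM with doxycycline against 7.04 CPM without it at day 2.5, and 455 CPM against 16.9 CPM at day 2. Kdr averaged 997 CPM in Flk1-positive libraries, 419 CPM with doxycycline and 7.23 CPM in untreated libraries at day 2.5. The doxycycline libraries of day 2 stood apart from each other the most. The SD of their log2 difference over 14403 genes was 0.53, against 0.40 to 0.46 in the other groups, and that difference had a Spearman correlation of -0.45 with exon length. With GC content the correlation was 0.34 in that pair and 0.38 in the Flk1-positive pair, against -0.035 to 0.0325 in the other groups.

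Definitive endoderm arises from the anterior primitive streak under strong Nodal signalling and goes on to form the gut, and Foxa2 and Foxa1 are forkhead factors that open chromatin there. Visceral endoderm covers the early epiblast, secretes apolipoproteins and takes up nutrients through the receptor complex of cubilin, amnionless and megalin. Etv2 drives mesoderm towards blood and endothelium.

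The labels of the 8 genes were set against other markers of the same cell types. Of 19 further visceral endoderm genes, 10 stayed under 1 CPM in all 10 libraries. Afp, the alpha-fetoprotein of yolk sac and liver, had 17 counts in all libraries together and at most 0.346 CPM. Ttr, which carries thyroid hormone and retinol, reached 0.693 CPM, Apoa1 0.522 CPM and the endoderm regulator Hnf4a 0.378 CPM. Other genes of that list were well expressed, such as the megalin gene Lrp2 at 19.4 to 122 CPM, Gata6 at 15.9 to 81.8 CPM and Gata4 at 8.67 to 21.1 CPM. Of 20 further definitive endoderm genes, 5 stayed under 1 CPM in all libraries. Others were well expressed, such as the epithelial gene Epcam at 163 to 302 CPM, the tight junction gene Cldn6 at 23.9 to 214 CPM and the homeobox gene Otx2 at 25.7 to 136 CPM. Sox17, a defining factor of definitive endoderm that endothelium also uses, averaged 41.4 CPM in Flk1-positive libraries, 10.8 CPM with doxycycline and 0.506 CPM in untreated libraries at day 2.5, and 1.98 CPM with doxycycline against 0.842 CPM without it at day 2. Secreted Cer1 stayed between 0.236 and 2.70 CPM. Afp, Ttr, Apoa1 and Hnf4a were thus at or near 0, while Lrp2, Gata6 and Gata4 were not. The 8 genes are called endoderm-linked genes here, with no cell type drawn from them.

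**Figure D1:**
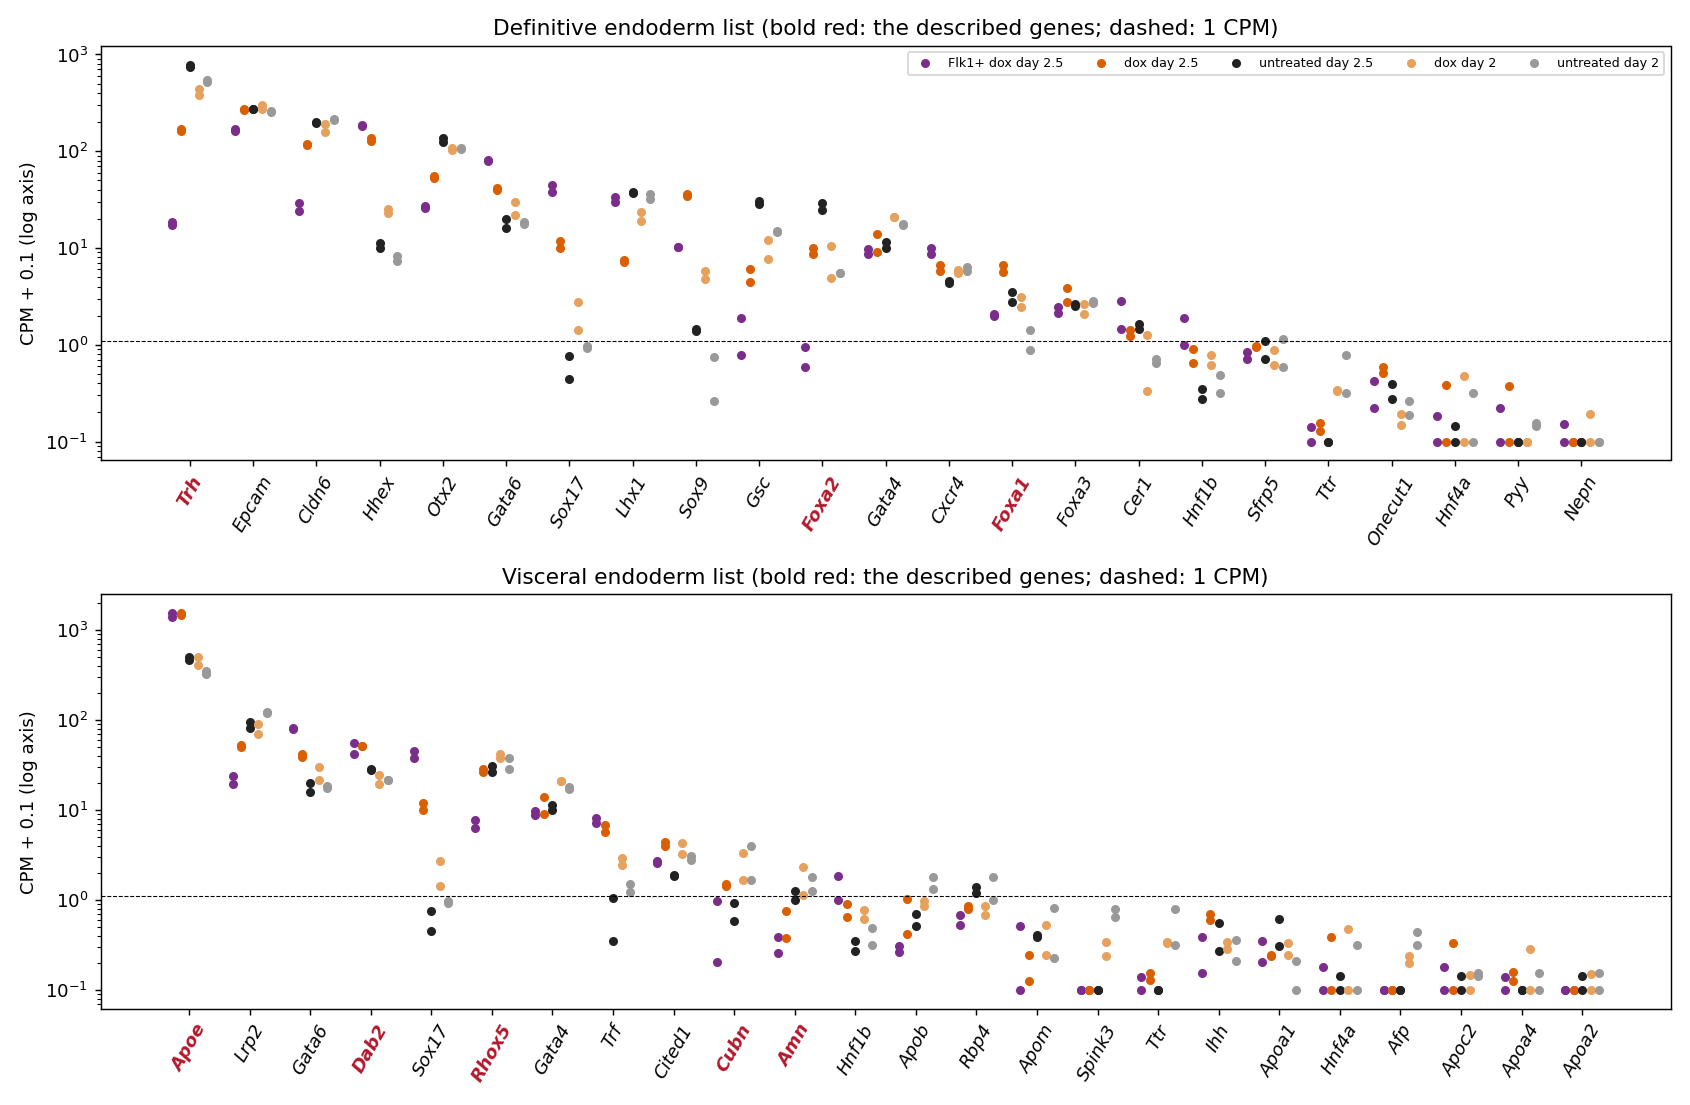
Level of each gene of the definitive endoderm list (top) and the visceral endoderm list (bottom) as CPM + 0.1 on a log axis, with a point for each of the 10 libraries coloured by group. Afp, Ttr, Apoa1 and Hnf4a lie below the dashed line at 1 CPM, and Lrp2, Gata6 and Gata4 lie above it. Apoe is the highest of its list in all libraries, and Trh the highest of its list in the untreated and the day 2 libraries.

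The promoter windows of 4 genes are shown, of which Foxa2 and Trh were lower and Apoe and Dab2 higher with doxycycline at day 2.5. The difference of Foxa2 is not read as a test. Foxa1 was also called higher there, and its window was searched but is not shown. Each is the 250 bases before the first start that RefSeq lists, on build GRCm38.p6, written along the strand of the gene. Capitals mark GGAA and its complement TTCC, the core letters of ETS sites. Foxa2 lies at chr2:148046970-148047219 on the minus strand, Trh at chr6:92244651-92244900 on the minus strand, Apoe at chr7:19699189-19699438 on the minus strand and Dab2 at chr15:6299539-6299788 on the plus strand. RefSeq lists 3 starts for Foxa2, 3 for Apoe and 2 for Dab2, so other windows exist. These 4 windows adjoin the gene starts given below to within 1 base.
Foxa2: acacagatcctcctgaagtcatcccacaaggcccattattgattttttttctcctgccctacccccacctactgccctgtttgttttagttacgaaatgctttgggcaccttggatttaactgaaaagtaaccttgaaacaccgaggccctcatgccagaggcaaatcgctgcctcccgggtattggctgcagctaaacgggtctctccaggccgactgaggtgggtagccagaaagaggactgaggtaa
Trh: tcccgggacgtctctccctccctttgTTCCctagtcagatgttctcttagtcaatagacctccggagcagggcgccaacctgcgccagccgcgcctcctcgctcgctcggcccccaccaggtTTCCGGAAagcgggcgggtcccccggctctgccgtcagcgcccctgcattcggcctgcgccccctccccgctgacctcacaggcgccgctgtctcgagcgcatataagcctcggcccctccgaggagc
Apoe: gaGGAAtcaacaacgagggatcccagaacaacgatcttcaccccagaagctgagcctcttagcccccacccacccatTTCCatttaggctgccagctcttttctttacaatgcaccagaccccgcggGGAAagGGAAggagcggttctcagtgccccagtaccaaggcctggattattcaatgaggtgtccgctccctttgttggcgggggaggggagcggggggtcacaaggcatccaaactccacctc
Dab2: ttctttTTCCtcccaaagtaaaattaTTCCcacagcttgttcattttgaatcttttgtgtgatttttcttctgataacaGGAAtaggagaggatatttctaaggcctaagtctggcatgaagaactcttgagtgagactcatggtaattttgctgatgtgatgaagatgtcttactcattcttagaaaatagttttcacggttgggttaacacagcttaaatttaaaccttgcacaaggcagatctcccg

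Both strands of the 8 windows were searched for 6 sets of letters. GGAA was absent from the Foxa2 window and occurred 3 times in that of Trh, 4 times in that of Apoe and 3 times in that of Dab2. It occurred in 93.4% of the windows of 27025 genes, with a median of 3 matches. The longer ETS letters CCGGAA, which contain GGAA, occurred in the windows of Trh, Rhox5 and Cubn and in 12.2% of all windows, and in Trh both strands matched within the capitals TTCCGGAA. The Rhox5 window lies 50234 bases, the Foxa1 window 805 bases and the Cubn window 63 bases from the GENCODE gene start whose coordinates are given with each gene. The forkhead letters TGTTTAC occurred in the Foxa1 window and in 3.09% of all windows. The Foxa2 window held none of the letters searched, which also included AATNCACA for FoxH1 (3.24% of all windows), GGTGTGA for T-box factors (3.31%) and AGATAA for GATA factors (10.2%). A match describes the letters only and does not show binding.

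With doxycycline at day 2.5, Foxa2 and Trh were lower while Foxa1, Apoe and Dab2 were higher than in untreated embryoid bodies. Of all 14548 genes tested 29.9% were called in either direction there. For the 8 genes that is 3 of 8 higher, where 16.1% of all genes were called higher, and 2 of 8 lower, where 13.8% were called lower (edgeR quasi-likelihood test, Benjamini-Hochberg adjusted p under 0.05). Foxa2 is among the lower ones and was chosen on the untreated libraries of that day, so nothing is read from its call. In Flk1-positive cells, Foxa2, Foxa1, Trh and Rhox5 were lower than in the doxycycline libraries of the same day, which is 4 of 8 genes where 21.3% of all genes were called lower and 41.8% were called in either direction. In edgeR 0 of the 8 were called higher there, where 20.5% of all genes were, with 0 at an unadjusted p under 0.05 and 0 by the DESeq2 Wald test. In bulk RNA, fewer cells of a type and less RNA per cell cannot be told apart. The comparisons at day 2.5 share libraries, since the doxycycline libraries serve in both and the untreated libraries serve against both doxycycline groups.

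**Figure D2:**
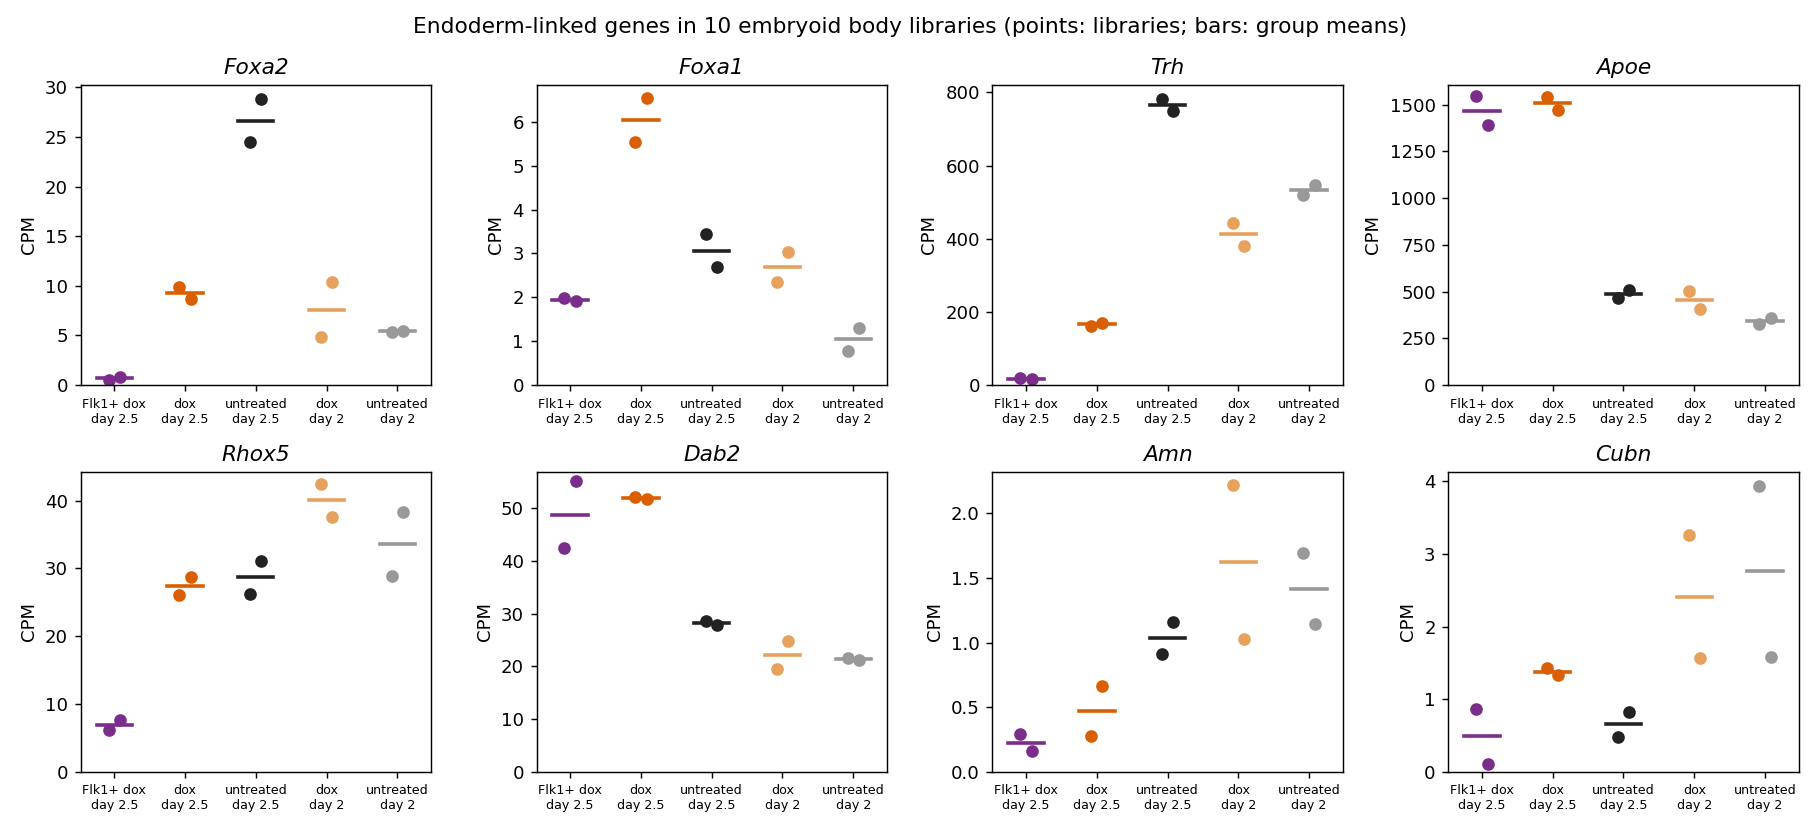
Level of each of the 8 genes in CPM (linear axis from 0) in each of 10 libraries, with a bar at the mean of each group of 2. Foxa2 and Trh are highest in untreated libraries of day 2.5 and lowest in Flk1-positive libraries, while Apoe and Dab2 are highest in both doxycycline groups of day 2.5.

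Foxa2 (chromosome 2, 148042877 to 148046969, minus strand, GRCm38) encodes the forkhead factor of node, notochord and definitive endoderm. It had 0.496 and 0.848 CPM in Flk1-positive libraries, 9.86 and 8.64 CPM with doxycycline and 24.5 and 28.8 CPM in untreated libraries at day 2.5. At day 2 it had 4.81 and 10.4 CPM with doxycycline, against 5.37 and 5.46 CPM without it. The untreated libraries of day 2.5 were thus the highest and the Flk1-positive libraries the lowest, with no overlap with any other group, while the ranges of the middle groups partly overlapped. The untreated level was 4.93-fold higher at day 2.5 than at day 2, which is the observation for which Foxa2 was chosen, and it is described here with no test.

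Against those same untreated libraries of day 2.5, the log2 change of Foxa2 was -1.53 ± 0.25 (SE) with doxycycline and -5.34 ± 0.36 in Flk1-positive libraries, lower in 2 of 2 libraries each. Since Foxa2 was chosen on these untreated libraries, both changes are also given with no test. Against doxycycline libraries of day 2.5, Foxa2 fell in Flk1-positive cells to 28 counts in both libraries together (95% Poisson interval 18.6 to 40.5, counting error only), a log2 change of -3.81 ± 0.37 (edgeR adjusted p = 1.558e-06). With doxycycline the level at day 2.5 was not called different from that at day 2, with a log2 change of 0.28 ± 0.26 (edgeR adjusted p = 0.403). That value rests on the day 2 pair, in which the level in replicate 1 was 0.463 times that in replicate 2. Without doxycycline day 2 replicate 2 the log2 change was 0.94 (edgeR adjusted p = 0.00144), and without replicate 1 it was -0.17. The same replicates set the day 2 comparison, in which Foxa2 changed by 0.49 ± 0.28. It changed by 0.94 without doxycycline replicate 1 and by -0.17 without replicate 2. Since Foxa2 was chosen on its rise from the untreated libraries of day 2, these day 2 changes are given with no test.

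Foxa1 (chromosome 12, 57540628 to 57546916, minus strand) encodes a forkhead factor that acts beside Foxa2 in gut endoderm. It had 1.98 and 1.91 CPM in Flk1-positive libraries, 5.55 and 6.56 CPM with doxycycline and 3.44 and 2.69 CPM in untreated libraries at day 2.5. Levels at day 2 were 2.36 and 3.03 CPM with doxycycline, against 0.780 and 1.31 CPM without it. The doxycycline libraries of day 2.5 were the highest and the untreated libraries of day 2 the lowest, and only doxycycline day 2 and untreated day 2.5 overlapped as neighbours in the order.

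Foxa1 rose with doxycycline by 0.98 ± 0.29 at day 2.5 on the log2 scale (edgeR adjusted p = 0.0174). The call was lost without doxycycline replicate 1 (edgeR adjusted p = 0.0554) or 2 (0.134) or untreated replicate 2 (0.129), each of day 2.5. In Flk1-positive cells Foxa1 was lower than with doxycycline by a log2 change of -1.63 ± 0.30 (edgeR adjusted p = 0.000559), while its change against untreated libraries was -0.65 ± 0.32 (edgeR adjusted p = 0.0921). Between the days Foxa1 rose with doxycycline by 1.17 ± 0.29 (edgeR adjusted p = 0.00447) and without it by 1.57 ± 0.34 (edgeR adjusted p = 0.00589). The rise without doxycycline was lost without untreated day 2 replicate 1 (edgeR adjusted p = 0.0941). Of the 8 genes, 4 were higher at day 2.5 than at day 2 without doxycycline, where 9.22% of all genes were called higher, and 1 was lower, where 10.3% were. Foxa2 is among those 4, so nothing is read from that count.

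At day 2 fewer genes differed with doxycycline, with 4.67% of all genes called in either direction. Foxa1 and Apoe were called higher, which is 2 of 8 genes where 3.11% of all genes were, and Trh was called lower, 1 of 8 where 1.56% were. The log2 changes were 1.39 ± 0.35 for Foxa1 (edgeR adjusted p = 0.0321), 0.42 ± 0.10 for Apoe (edgeR adjusted p = 0.0311) and -0.37 ± 0.09 for Trh (edgeR adjusted p = 0.0296). All 3 calls were lost when only the day 2 libraries were fitted, with edgeR adjusted p from 0.251 to 0.278, and each was lost in most fits that left out a library, of either day.

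The definitive endoderm list holds Foxa2, Foxa1, Trh and 20 other genes, of which 18 in all were tested. The counts of this and the following lists stand beside 16.1% of all genes called higher and 13.8% lower with doxycycline at day 2.5. For Flk1-positive cells against doxycycline these shares were 20.5% and 21.3%. With doxycycline at day 2.5, 5 were higher and 6 lower, with a median log2 change of 0.09, against 0.003 over all genes. Foxa2 is among those 6 and in that median, and nothing is read from its value. Among the higher ones were Hhex, a homeobox factor of endoderm and blood vessels (3.66 ± 0.11, edgeR adjusted p = 2.687e-12), and Sox9, an HMG-box factor (4.71 ± 0.25, edgeR adjusted p = 1.082e-09). Among the lower ones were the homeobox factors Lhx1 (-2.37 ± 0.14, edgeR adjusted p = 5.494e-09) and Otx2 (-1.27 ± 0.09, edgeR adjusted p = 3.555e-08). In Flk1-positive cells against doxycycline, 5 of 18 were higher and 8 lower, with a median of -0.44 against -0.004 over all genes. The genes of this list thus moved in both directions in each comparison. Foxa2, Foxa1 and Trh were all among those lower in Flk1-positive cells than with doxycycline.

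Nodal signalling sets up the anterior streak, and 13 genes of streak, node and axial mesoderm were tested beside Foxa2. At day 2.5, 9 of the 13 were lower with doxycycline, with a median log2 change of -1.26. Nodal itself had 3.66 to 3.92 CPM in Flk1-positive libraries, 47.0 to 47.4 CPM with doxycycline and 141 to 153 CPM in untreated libraries. Eomes, the T-box factor upstream of definitive endoderm, fell by 1.99 ± 0.11 on the log2 scale with doxycycline (edgeR adjusted p = 1.694e-09). Mixl1, a homeobox factor of the streak, fell by 2.34 ± 0.10 (edgeR adjusted p = 9.443e-11). Flk1-positive cells had 3 of 13 higher and 7 lower than with doxycycline, with a median of -1.40. At day 2, 1 was higher with doxycycline and 4 lower, with a median of -0.50 against 0.004 over all genes. The shares of all genes called at day 2 were 3.11% higher and 1.56% lower.

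Trh (chromosome 6, 92242061 to 92244650, minus strand) encodes the precursor of thyrotropin-releasing hormone, a brain peptide that is also a marker of early definitive endoderm in mouse embryos. It had 18.4 and 17.1 CPM in Flk1-positive libraries, 160.5 and 171 CPM with doxycycline and 782 and 749 CPM in untreated libraries at day 2.5. Day 2 libraries had 444 and 379 CPM with doxycycline, against 518 and 547 CPM without it. No ranges of the 5 groups overlapped, and the order from highest to lowest was untreated day 2.5, untreated day 2, doxycycline day 2, doxycycline day 2.5 and Flk1-positive.

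Trh fell with doxycycline at day 2.5 to 0.216 times the untreated level (log2 change -2.21 ± 0.10, edgeR adjusted p = 1.317e-10). In Flk1-positive cells it fell to 0.107 times the doxycycline level (-3.22 ± 0.11, edgeR adjusted p = 2.152e-11) and to 0.0232 times the untreated level (-5.43 ± 0.11, edgeR adjusted p = 2.264e-14). Between day 2.5 and day 2 it moved in opposite directions, with a log2 change of -1.31 ± 0.09 with doxycycline (edgeR adjusted p = 7.609e-08) and of 0.52 ± 0.09 without it (edgeR adjusted p = 0.00165). These 5 calls held in every setting tried.

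Of 9 genes for TRH, its processing enzymes and its receptors, 7 were tested. The receptors were at the floor, with 6 counts of Trhr and 2 of Trhr2 over all 10 libraries. At day 2.5, 3 of 7 were called higher with doxycycline, namely Pam, Cpe and the TRH-degrading enzyme Trhde, and Trh was called lower, with a median log2 change of 0.04. Trhde had 28 counts in both doxycycline libraries together against 1 in the untreated ones, and the call of Cpe was lost without doxycycline replicate 1 (edgeR adjusted p = 0.0558) or untreated replicate 2 (0.0546) of day 2.5. Pam, which amidates peptide hormones, had 53.2 to 54.4 CPM with doxycycline against 32.9 to 33.3 CPM without it, a log2 change of 0.70 ± 0.11 (edgeR adjusted p = 0.000137). Pcsk2, a prohormone convertase, fell in Flk1-positive cells to 3 and 11 counts, by 2.19 ± 0.46 on the log2 scale against doxycycline (edgeR adjusted p = 0.00148). Pcsk2 and Trh were the 2 of 7 called lower there, with a median of -0.34. With doxycycline at day 2.5 the change of Pcsk2 was -0.91 ± 0.35 (edgeR adjusted p = 0.0658).

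Apoe (chromosome 7, 19696109 to 19699188, minus strand) encodes apolipoprotein E, a lipid carrier made by visceral endoderm, liver, glia and macrophages. It had 1544 and 1389.8 CPM in Flk1-positive libraries, 1541 and 1471 CPM with doxycycline and 467 and 509 CPM in untreated libraries at day 2.5. At day 2 it had 505 and 408 CPM with doxycycline, against 328 and 356 CPM without it. The Flk1-positive and doxycycline libraries of day 2.5 overlapped and lay well above all others, untreated day 2.5 and doxycycline day 2 overlapped, and untreated day 2 was lowest.

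Apoe was 3.08-fold higher with doxycycline at day 2.5 (log2 change 1.63 ± 0.11, edgeR adjusted p = 1.428e-08) and 3.005-fold higher in Flk1-positive than in untreated libraries (1.59 ± 0.11, edgeR adjusted p = 6.466e-09). Flk1-positive and doxycycline libraries were not called different, with a log2 change of -0.04 ± 0.10 (edgeR adjusted p = 0.797). The rise between the days was 1.72 ± 0.11 with doxycycline (edgeR adjusted p = 1.801e-08) and 0.51 ± 0.10 without it (edgeR adjusted p = 0.00398). The call without doxycycline was lost without untreated day 2 replicate 1 (edgeR adjusted p = 0.0698) or untreated day 2.5 replicate 2 (0.0707).

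Of 17 genes for apolipoprotein E, its receptors and its lipid-export partners, 15 were tested. At day 2.5, 6 were higher with doxycycline and 1 lower, with a median log2 change of 0.22. Nr1h3, the lipid-sensing receptor LXR alpha, had 9.82 to 11.0 CPM with doxycycline against 2.86 to 3.35 CPM without it, a log2 change of 1.74 ± 0.21 (edgeR adjusted p = 1.648e-05). Abca1, a cholesterol exporter and a known target of that receptor, changed by 2.56 ± 0.41 (edgeR adjusted p = 0.000219) at 2.61 to 3.21 CPM with doxycycline, against 0.414 to 0.566 CPM without it. Lrp8, a receptor for apolipoprotein E, fell by 1.34 ± 0.12 (edgeR adjusted p = 4.666e-07). In Flk1-positive cells against doxycycline 6 of 15 were higher and 3 lower, with a median of 0.21, and Nr1h3 was again higher (0.98 ± 0.19, edgeR adjusted p = 0.000822). Apoe itself was not called in that comparison.

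Macrophages are a known source of Apoe. Of 14 blood and macrophage genes, 8 stayed under 1 CPM in all libraries, and Ptprc, Csf1r and Lyz2 had 7, 3 and 10 counts over all 10 libraries. Cd68 of the same list went the other way, with 8.51 to 21.2 CPM. It was higher with doxycycline at day 2.5 by 1.13 ± 0.18 on the log2 scale (edgeR adjusted p = 0.000172). The summed level of the list was 39.9 to 43.9 CPM in Flk1-positive libraries, 31.0 to 31.6 CPM with doxycycline and 12.7 to 14.7 CPM in untreated libraries at day 2.5. Levels at day 2 were 13.6 to 16.9 CPM with doxycycline, against 12.99 to 13.99 CPM without it. With doxycycline at day 2.5, 5 of 6 tested genes were higher, with a median of 1.44. They were Cd68, the blood regulators Runx1 and Gata1, the platelet integrin Itga2b and Sfpi1. Sfpi1 had 2.56 CPM in its highest library, and was also higher in Flk1-positive than in untreated libraries (3.03 ± 0.82, edgeR adjusted p = 0.00549). In Flk1-positive cells 3 were higher than with doxycycline and 1 lower, with a median of 0.95. The lower one was Cd68 (-0.86 ± 0.17, edgeR adjusted p = 0.00113). The part of macrophages in the level of Apoe was not tested.

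Endothelial genes were set beside Apoe and Dab2 as well. All 14 tested endothelial genes were higher with doxycycline at day 2.5, with a median log2 change of 4.94, and in Flk1-positive cells 12 were higher than with doxycycline and 1 lower, with a median of 1.21. Their summed level was 2756 to 2839.7 CPM in Flk1-positive libraries, 1099 to 1157 CPM with doxycycline and 82.5 to 84.2 CPM in untreated libraries at day 2.5. Day 2 libraries had 273 to 326 CPM with doxycycline, against 114 to 121 CPM without it. The endothelial sum was higher in Flk1-positive than in doxycycline libraries, while Apoe and Dab2 were not called different there. Between the days without doxycycline 1 endothelial gene was called higher and 5 lower, with a median of -0.92. Of all genes 9.22% were called higher there and 10.3% lower. Apoe rose there by 0.51 ± 0.10 and Dab2 was not called. The part of endothelial cells in the levels of Apoe and Dab2 was not tested.

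Dab2 (chromosome 15, 6299788 to 6440712, plus strand) encodes a clathrin adaptor that links cubilin and megalin to endocytosis, and is used in primitive and visceral endoderm, endothelium and macrophages. It had 42.4 and 55.1 CPM in Flk1-positive libraries, 52.0 and 51.8 CPM with doxycycline and 28.6 and 27.8 CPM in untreated libraries at day 2.5. At day 2 it had 19.4 and 24.7 CPM with doxycycline, against 21.6 and 21.3 CPM without it. The doxycycline and Flk1-positive libraries of day 2.5 overlapped at the top, untreated day 2.5 lay below them, and the groups of day 2 overlapped at the bottom.

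Dab2 rose with doxycycline at day 2.5 by 0.88 ± 0.14 on the log2 scale (edgeR adjusted p = 0.000184) and was higher by 0.79 ± 0.14 in Flk1-positive than in untreated libraries (edgeR adjusted p = 0.000212). Against doxycycline the Flk1-positive libraries were not called different (-0.09 ± 0.14, edgeR adjusted p = 0.613). Between the days it rose by 1.23 ± 0.14 with doxycycline (edgeR adjusted p = 7.324e-06). Without doxycycline the change of 0.40 ± 0.14 missed the threshold (edgeR adjusted p = 0.0651) and passed it in 8 of 16 other settings, at edgeR adjusted p from 0.00819 to 0.0493. An antisense gene, Gm18888, overlaps 2.87% of the exon bases of Dab2, and the counts do not say which strand reads came from.

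Amn and Cubn, other partners in that uptake, had low counts, at most 47 and 91 in any library. Amn (chromosome 12, 111271095 to 111276426, plus strand) encodes amnionless, which anchors cubilin in the membrane. It had 7 and 3 counts in Flk1-positive libraries (0.289 and 0.159 CPM), 10 and 23 with doxycycline (0.275 and 0.664 CPM) and 21 and 28 in untreated libraries (0.914 and 1.16 CPM) at day 2.5. Levels at day 2 were 47 and 21 counts with doxycycline (2.22 and 1.03 CPM), against 39 and 21 without it (1.69 and 1.15 CPM). The Flk1-positive and doxycycline libraries of day 2.5 overlapped at the bottom, and the groups of day 2 and untreated day 2.5 overlapped in turn as neighbours in the order.

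Amn was lower in Flk1-positive than in untreated libraries (-2.15 ± 0.70, edgeR adjusted p = 0.0166), a call lost without Flk1-positive replicate 2 (edgeR adjusted p = 0.0948) or untreated replicate 2 (0.076). With that gene, 4 of 8 were lower in Flk1-positive than in untreated libraries, where 26.6% of all genes were, and 2 of 8 higher, where 28.6% were, with 55.3% of all genes called in either direction. Foxa2 is among those 4, and nothing is read from its call. Between the days with doxycycline Amn changed by -1.79 ± 0.59 (edgeR adjusted p = 0.0212), which was lost without doxycycline day 2 replicate 1 (edgeR adjusted p = 0.235) or day 2.5 replicate 1 (0.148) and with only the compared groups (0.0719). The change with doxycycline at day 2.5 was not called (-1.14 ± 0.60, edgeR adjusted p = 0.169).

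Cubn (chromosome 2, 13276338 to 13491813, minus strand) encodes cubilin, the receptor that takes up vitamin B12 with intrinsic factor. It had 21 and 2 counts in Flk1-positive libraries (0.867 and 0.106 CPM), 52 and 46 with doxycycline (1.43 and 1.33 CPM) and 11 and 20 in untreated libraries (0.479 and 0.829 CPM) at day 2.5. At day 2 it had 69 and 32 counts with doxycycline (3.26 and 1.56 CPM), against 91 and 29 without it (3.94 and 1.58 CPM). In 3 of 5 groups the replicates differed by 2.08 to 8.18 times, so most comparisons of Cubn were within the spread of replicates. An antisense gene, Gm13270, overlaps 2.46% of its exon bases. Cubn was lower at day 2.5 than at day 2 without doxycycline (-2.08 ± 0.64, edgeR adjusted p = 0.0340), and the call was lost when any of 5 libraries was left out, at edgeR adjusted p from 0.0506 to 0.365. Its change with doxycycline at day 2.5 was 1.07 ± 0.65 (edgeR adjusted p = 0.242), and in Flk1-positive cells against doxycycline -1.41 ± 0.68 (edgeR adjusted p = 0.107), which passed without Flk1-positive replicate 1 (-3.63, edgeR adjusted p = 0.0222), without doxycycline day 2 replicate 2 (0.0493) and with no filter on low counts (0.0178).

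All 9 genes of cubilin and megalin uptake were tested. Doxycycline at day 2.5 left 5 higher and 1 lower, with a median log2 change of 0.38 against 0.003 over all genes. Lrp2, which encodes megalin, fell (-0.78 ± 0.13, edgeR adjusted p = 0.000286), with 50.3 to 53.0 CPM with doxycycline against 80.8 to 96.0 CPM without it. Myo6, a myosin that moves uptake vesicles, rose by 1.28 ± 0.14 (edgeR adjusted p = 4.275e-06). Flk1-positive cells had 1 of 9 higher and 4 lower than with doxycycline, with a median of -0.57, and Lrp2 changed by -1.25 ± 0.14 (edgeR adjusted p = 4.88e-06). The adaptor Dab2 and the receptor Lrp2 thus moved in opposite directions with doxycycline.

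Of 17 tested visceral endoderm genes, Apoe, Dab2 and Rhox5 among them, 6 were higher and 1 lower with doxycycline at day 2.5, with a median log2 change of 0.79. Apoe made up 59.8 to 88.3% of the summed CPM of this list in the 10 libraries, so the sum of the list follows it. Of the genes that rose, Sox17 changed by 4.39 ± 0.32 (edgeR adjusted p = 5.094e-08), the iron carrier Trf by 3.35 ± 0.40 (edgeR adjusted p = 1.175e-05) and the zinc-finger factor Gata6 by 1.17 ± 0.15 (edgeR adjusted p = 1.964e-05). Flk1-positive cells had 2 higher and 2 lower than with doxycycline, with a median of -0.31. Both counts, out of 17, were below the 20.5% and 21.3% of all genes called higher and lower there. Of 17 tested primitive and parietal endoderm genes, Dab2 among them, 8 were higher and 3 lower with doxycycline at day 2.5, with a median of 0.79. The higher ones included Sox7 (7.74 ± 0.34, edgeR adjusted p = 5.658e-10), which endothelium also uses, and the basement membrane genes Lama1 (2.12 ± 0.16, edgeR adjusted p = 8.47e-08) and Col4a2 (1.06 ± 0.09, edgeR adjusted p = 3.406e-07). Flk1-positive cells had 5 higher and 4 lower than with doxycycline, with a median of 0.02. With doxycycline at day 2.5, Dab2, Sox17 and Gata6 counted as higher in both the visceral and the primitive and parietal list. Sox17 and Gata6 counted in the definitive endoderm list as well, so these lists are not separate observations.

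Rhox5 (X chromosome, 37804842 to 37808876, plus strand) is a reproductive homeobox gene, known in early mouse embryos from extraembryonic tissues. It had 6.15 and 7.63 CPM in Flk1-positive libraries, 26.1 and 28.7 CPM with doxycycline and 26.2 and 31.1 CPM in untreated libraries at day 2.5. Day 2 libraries had 42.4 and 37.6 CPM with doxycycline, against 28.9 and 38.3 CPM without it. The Flk1-positive libraries lay apart below all others, and each of the other groups overlapped its neighbour in the order.

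Rhox5 fell in Flk1-positive cells to 0.250 times the doxycycline level (-1.999 ± 0.17, edgeR adjusted p = 4.212e-07) and to 0.239 times the untreated level (-2.06 ± 0.17, edgeR adjusted p = 8.333e-08). At day 2.5 it was not called different between doxycycline and untreated libraries (-0.06 ± 0.15, edgeR adjusted p = 0.788). Between the days it fell with doxycycline by 0.55 ± 0.15 (edgeR adjusted p = 0.00831), and with Trh and Amn it made 3 of 8 genes lower there, where 23.1% of all genes were, while Foxa1, Apoe and Dab2 made 3 of 8 higher, where 22.9% were. That call was lost when trends with exon length and GC content were removed (-0.16, edgeR adjusted p = 0.361) and without doxycycline day 2.5 replicate 1 (0.0727).

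Rhox5 made up 80.6 to 97.8% of the summed CPM of 11 genes of its cluster, of which 7 stayed under 1 CPM and 4 were tested. In Flk1-positive cells against doxycycline 3 of the 4 were lower, namely Rhox5, Rhox6 and Rhox9, of which only Rhox5 had more than a few counts in Flk1-positive libraries. Its neighbour Rhox6 had 0 counts in both Flk1-positive libraries, 6 and 14 with doxycycline and 3 and 6 in untreated libraries at day 2.5, against 47 to 103 at day 2. The lower call of Rhox6 was lost without doxycycline day 2.5 replicate 1 or either Flk1-positive replicate, at log2 changes of -5.03 to -5.82. Rhox9 had 1 count in both Flk1-positive libraries together, against 64 with doxycycline. With doxycycline at day 2.5, 1 of the 4 was higher than in untreated libraries, Rhox9 (1.49 ± 0.54, edgeR adjusted p = 0.0496), with a median of 0.24. That call was lost in 10 of 16 other settings, at adjusted p from 0.0508 (DESeq2 Wald test) to 0.248 (without untreated day 2.5 replicate 1).

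**Figure D3:**
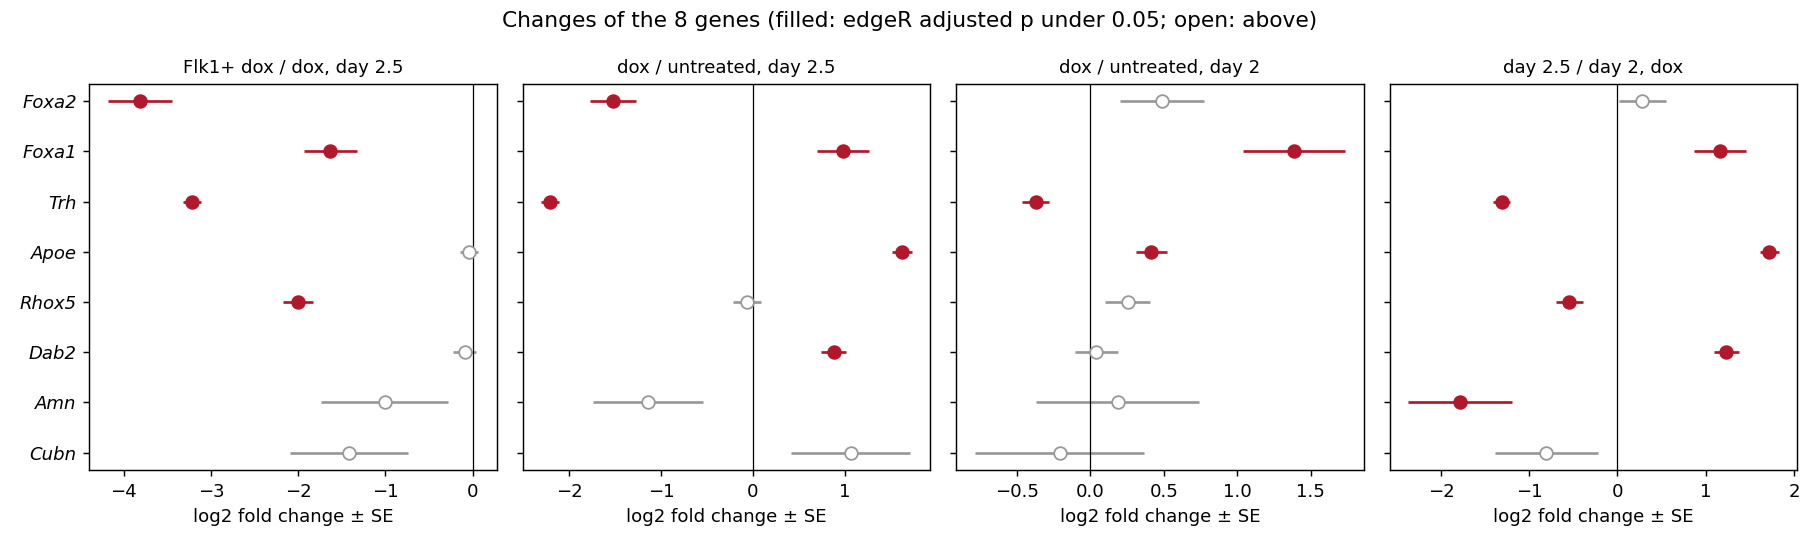
Log2 fold change ± SE (edgeR) of the 8 genes in 4 comparisons, each with its own axis, filled where the adjusted p is under 0.05. Foxa2 and Trh lie left of 0 and Apoe and Dab2 right of it with doxycycline at day 2.5, while Apoe and Dab2 lie near 0 for Flk1-positive against doxycycline libraries. Foxa2 was chosen on the untreated libraries of both days, so its points against them are not read as a test.

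The doxycycline difference itself changed between the days for Trh, Apoe and Dab2. Apoe and Dab2 had a more positive difference at day 2.5 than at day 2, where 6.87% of all genes were called so, and Trh a more negative one, where 5.24% were. Foxa2 is left out of this count, since its value contains the rise for which it was chosen. For Foxa1, Rhox5, Amn and Cubn the edgeR adjusted p of this difference was 0.321 to 0.617.

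Per kb of exon, Trh led the untreated libraries of day 2.5 at a mean of 553 CPM per kb, followed by Apoe at 228, Rhox5 at 38.0, Foxa2 at 11.3, Dab2 at 3.84, Foxa1 at 0.921, Amn at 0.563 and Cubn at 0.0438. With doxycycline Apoe led at 704 CPM per kb, ahead of Trh at 119.7. In Flk1-positive libraries Apoe had 686 CPM per kb and Trh 12.8. Apoe and Trh thus changed places at the top, and Amn and Cubn stayed at the bottom in each of these groups.

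Genes of most similar pattern were found by the root mean square difference of log2 CPM, centred on each gene, over the 10 libraries. Of 10737 candidates, the nearest to Trh were Tdgf1, the Nodal co-receptor Cripto (0.26), Nodal itself (0.29) and Pla2g7 (0.31). The nearest to Foxa2 were Foxp2 (0.55), Atp1b2 (0.59) and Crabp2 (0.64). The nearest to Apoe were Jun (0.16), Sepp1 (0.17) and Ralb (0.18), and to Dab2 Sh3d19 (0.10), Ica1 (0.10) and Iqgap2 (0.12). B2m was nearest to Foxa1 (0.35), Lima1 to Rhox5 (0.19), Rasa4 to Amn (0.29) and Tfeb to Cubn (0.66). Among the 8 genes, Apoe and Dab2 were the closest pair (0.43), Foxa2 and Trh differed by 0.96, Foxa2 and Foxa1 by 1.60, and Trh and Apoe were the farthest apart (2.73).

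**Figure D4:**
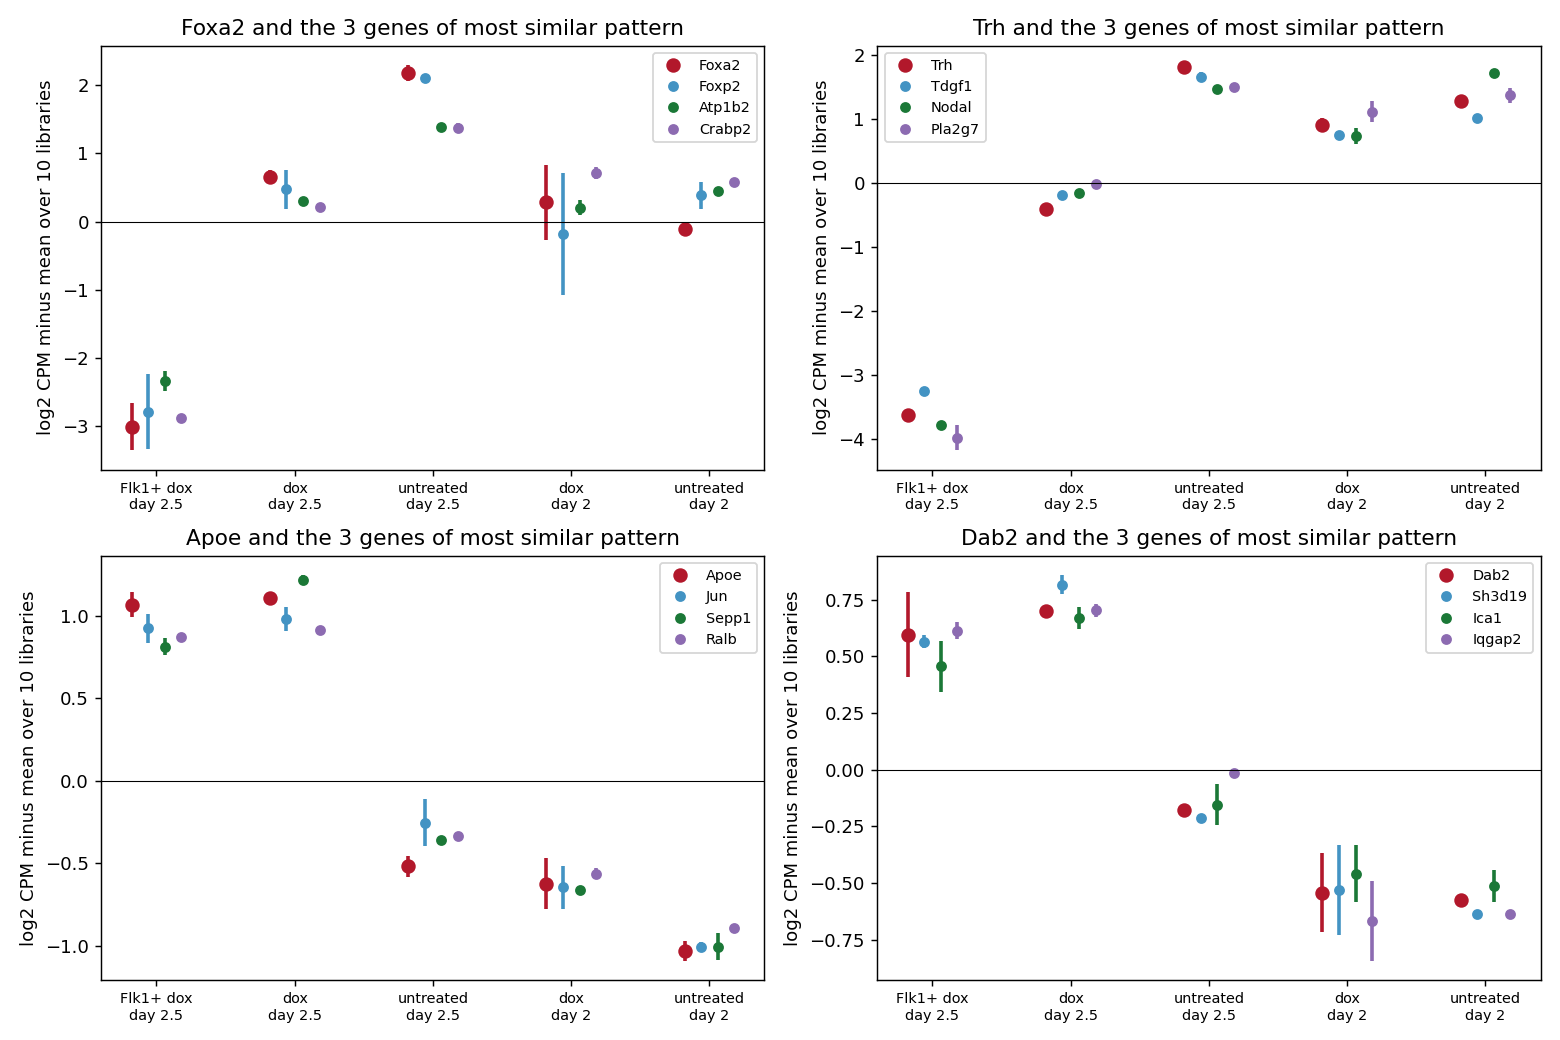
Centred log2 CPM of Foxa2, Trh, Apoe and Dab2, each with its 3 nearest genes, as group means with a bar from the lower to the higher of 2 libraries. Tdgf1, Nodal and Pla2g7 are lowest in Flk1-positive libraries like Trh, and Foxa2 and Foxp2 both spread widely between the doxycycline libraries of day 2.

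Lists for other cells were counted in the same way with doxycycline at day 2.5, where 16.1% of all genes were called higher and 13.8% lower. Of 7 tested trophoblast genes 2 were higher and 1 lower (median log2 change 0.23), of 10 naive pluripotency genes 3 were higher and 1 lower (median 0.43), and of 5 neural genes 2 were higher and 2 lower (median 0.07). In Flk1-positive cells against doxycycline 20.5% of all genes were called higher and 21.3% lower. There 1 trophoblast gene was higher and 2 lower (median -0.69), so nothing is read from these counts, which are not far from those shares. Of the naive pluripotency genes 2 were higher and 7 lower (median -0.94), and all 5 neural genes were lower (median -1.04).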

How the data were processed

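The authors deposited raw counts of reads per gene for all 10 libraries, as whole numbers with no normalization. The submitters' processing notes name TopHat, HTSeq, DESeq2 and build mm10, with no version, and neither the gene annotation nor the strand setting is stated. The 92 spike-in entries, which held 0 counts, were left out.

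Counts were fitted with edgeR 4.0.16 (R 4.3.3), using TMM scaling, a filter on low counts (minimum 10 per library in the smallest group, 15 in total) and a robust quasi-likelihood test over all 10 libraries, with 7 comparisons and p adjusted over 14548 genes. All 8 genes passed the filter. The SE of a log2 fold change is its size divided by the square root of F. The steps were tested on simulated data.

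The 8 genes and the 13 gene lists were chosen with earlier results of these data known. Beside the 8 genes, up to 4 further genes per list and comparison with the smallest adjusted p could be named, with the 3 genes of most similar pattern. Levels and counts of other list genes are given as a check of the labels. Candidates for similar pattern had at least 5 CPM in 1 group.

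Exon lengths and coordinates are from GENCODE vM21 (GRCm38), and 98.0% of genes matched. Promoters are from RefSeq. The alternatives were DESeq2 size factors, no filter, the DESeq2 1.42.0 Wald test, only the compared groups, the replicate number as a block, removal of exon length and GC trends, and each library left out.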

Additional observations from a re-analysis of the deposited data

Results flagged for a closer look

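The doxycycline difference at day 2.5 minus that at day 2 was tested as an interaction, and 12.1% of all genes were called in either direction. The same libraries serve in the comparisons of the report. For Trh it was -1.84 ± 0.13 on the log2 scale (SE, edgeR adjusted p = 3.834e-07), with a doxycycline change of -2.21 at day 2.5 and -0.37 at day 2, lower in 2 of 2 doxycycline libraries on each day. For Apoe it was 1.21 ± 0.15 (edgeR adjusted p = 6.409e-05), with changes of 1.63 and 0.42, higher in 2 of 2 doxycycline libraries on each day. For Dab2 it was 0.84 ± 0.20 (edgeR adjusted p = 0.0127), with changes of 0.88 at day 2.5 and 0.04 at day 2. For Dab2 4 libraries each ended the call when left out, namely replicate 1 of untreated day 2 (edgeR adjusted p = 0.0634), both of doxycycline day 2.5 (0.064 and 0.0564) and replicate 2 of untreated day 2.5 (0.0618). For Foxa2 it was -2.02 ± 0.38, with changes of -1.53 at day 2.5 and 0.49 at day 2. That value contains the rise for which Foxa2 was chosen and is given with no test.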

How the results depend on the processing

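Over 16 alternative settings, 822 of 896 values of the 8 genes kept their direction and side of the threshold, 46 were no longer called, 13 became called and 15 changed sign, the sign changes being all among values that were not called. The numbers of genes called at day 2 moved from 680 to 1046 with no filter, 156 with only the compared groups (0 of the 8 genes higher and 0 lower) and 1156 with exon length and GC trends removed. Those between the days without doxycycline moved from 2836 to 4585 with only the compared groups, and those of the interaction from 1763 to 2647 with length and GC trends removed. The cause was not tested.

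Values that changed sign did so when a library was left out, except where length and GC trends were removed, which gave 0.0969 for Rhox5 with doxycycline at day 2.5 and 0.091 for Apoe in Flk1-positive against doxycycline libraries. With a library left out, the log2 changes at day 2 ranged from -0.168 to 0.943 for Foxa2, -0.143 to 0.206 for Dab2, -0.473 to 0.635 for Amn and -0.834 to 0.607 for Cubn, set in each case by the doxycycline replicates and for Cubn also by untreated replicate 1. Without untreated replicate 2 Amn was -0.0558, and without doxycycline replicate 2 Cubn was 0.221. For doxycycline at day 2.5, Rhox5 ranged from -0.181 to 0.0631. For Flk1-positive against doxycycline libraries, Apoe ranged from -0.11 to 0.0398 (6e-04 without doxycycline replicate 1) and Dab2 from -0.288 to 0.0924. For Flk1-positive against untreated libraries, Cubn ranged from -2.61 to 0.365 (0.104 without untreated replicate 2). Between the days with doxycycline, Foxa2 ranged from -0.17 to 0.941.

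With each library left out in turn, genes called ranged from 244 to 2284 for doxycycline at day 2 (0 to 3 of the 8 genes higher, 0 to 1 lower), 2638 to 5963 at day 2.5 (2 to 3, 2 to 2), 4028 to 7581 for Flk1-positive against doxycycline (0 to 0, 4 to 5), 6391 to 9178 for Flk1-positive against untreated (2 to 2, 3 to 4), 669 to 4793 between the days without doxycycline (2 to 5, 0 to 1), 4746 to 7699 with it (3 to 4, 1 to 3) and 829 to 4052 for the interaction (1 to 2, 2 to 2).

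Replicate numbers did not pair libraries: deviations of same-numbered libraries correlated at -0.0337 to 0.0979. With the replicate block, 740, 4501, 6253, 8146, 3094, 6832 and 1941 genes were called in those 7 comparisons, Dab2 was called between the days without doxycycline (edgeR adjusted p = 0.0493) and Rhox9 was not called with doxycycline at day 2.5 (0.0573). Depth limits Amn and Cubn most, with 2 to 91 counts per library.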

Other observations

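The neighbours of Apoe on chromosome 7 were looked at after their values were seen. Apoc1, which encodes another apolipoprotein and lies 3449 bases away, was higher with doxycycline than in untreated libraries at day 2.5 (log2 change 0.61 ± 0.22, edgeR adjusted p = 0.0483) and higher in Flk1-positive than in doxycycline libraries (0.90 ± 0.21, edgeR adjusted p = 0.00280). Tomm40, which encodes a pore of the outer mitochondrial membrane and lies 2125 bases away on the other side, was lower with doxycycline at day 2.5 (-0.61 ± 0.12, edgeR adjusted p = 0.00136).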
